A study of Mus musculus with 6 samples.

Results

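Endothelial genes were followed in embryonic mouse kidney across a genotype comparison. A list of 34 genes of blood and lymphatic vessels was set against the array's annotation, and all 34 had a probe set assigned to 1 gene, out of 18193 genes measured in all. A gene with several such probe sets was read from the one with the highest mean over the arrays. The samples were whole kidneys of E13.5 embryos, an age at which the ureteric bud is branching, profiled on Affymetrix MOE430.2 arrays from 100 ng of total RNA. Both genotypes lacked Fz8 (Fz8-/-), and they differed in Fz4: 3 arrays were Fz4+/+Fz8-/- (Fz8-null, C1, C2 and C3) and 3 were Fz4-/-Fz8-/- (double-null, M1, M2 and M3). Every mouse came from a hybrid background of C57BL/6, 129X1/SvJ and 129S1/Sv. No Cre driver or transgene is named, the labels do not say how many embryos were pooled per array, and no kidney with Fz8 intact was among the samples. Fz4 and Fz8 are the Frizzled receptors encoded by Fzd4 and Fzd8, and the study used the pair to ask about growth of the ureteric tree.

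Endothelial cells line blood and lymphatic vessels. In the developing kidney they form a plexus around the branching ureteric bud and are later drawn into the glomeruli by vascular endothelial growth factor (VEGF). Fz4 has a well known role in this cell type: in retina and cerebellum it receives the ligand Norrin together with Lrp5 and Tspan12, and the signal acts through beta-catenin to raise Sox17 and Cldn5 and to lower Plvap in the vessel wall.

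The labels held for the deleted gene. Fzd4 read 10.74, 10.86 and 10.93 (log2 intensity) in C1, C2 and C3, and 5.29, 4.96 and 3.89 in M1, M2 and M3, a difference of -6.13 (SE 0.35, limma adjusted p = 0.00318). The tissue markers were present as well, since each of the 10 measured genes of an 11-gene embryonic kidney list had a mean log2 value of at least 7.47. Of the endothelial genes, 32 had a mean of at least 6, and the dimmest, Vwf, had a mean of 4.99. Array medians ran from 6.02 to 6.14 over all probe sets, and from 7.04 (M2) to 7.39 (C2) over the 1 probe set used per gene. Within the double-null group the arrays differed from each other more than the Fz8-null arrays did, so values are given per array. Whole kidneys were profiled, and fewer endothelial cells and less RNA per endothelial cell cannot be told apart.

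Most endothelial genes lay lower in double-null kidneys and none passed the threshold. Judged by medians, the endothelial genes lay lower than other bright genes mainly in 1 of the 3 double-null arrays, M2. The receptor genes Kdr, Flt4 and Tie1, the SOX factor gene Sox7, the junction gene Esam and the secreted factor gene Esm1 were among those that lay lower in every double-null array. Lyve1, a hyaluronan receptor gene, lay higher in all 3. Of the 34 genes 27 had a difference (double-null minus Fz8-null) below 0 and 7 above, with a median of -0.31 on the log2 scale. For comparison, all 18193 genes had a median of -0.061, and the 11174 bright genes, those whose mean log2 was 6 or more, had one of -0.15. A difference below 0 was found in 79.4% of the endothelial genes, in 58.1% of all genes and in 71.5% of bright genes, which lay lower in general.

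By limma with Benjamini-Hochberg adjustment over all genes, 0 of the 34 genes passed an adjusted p of 0.05, where 0.0275% of all genes did (5 of 18193). The smallest adjusted p among them was 0.314. At an unadjusted p under 0.05 limma gave 8 lower (9.23% of all genes were) and 1 higher (6.05% of all genes were). The 3 double-null arrays were all below the 3 Fz8-null arrays for 9 endothelial genes, or 26.5% of them, against 12.2% of all genes and 16.3% of bright genes. They were all above for 1 endothelial gene, against 6.68% of all genes. The 95% interval of a difference had a median half-width of 0.53 over the 34 genes (lowest 0.30, highest 0.87), unadjusted for the number of genes.

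**Figure D1:**
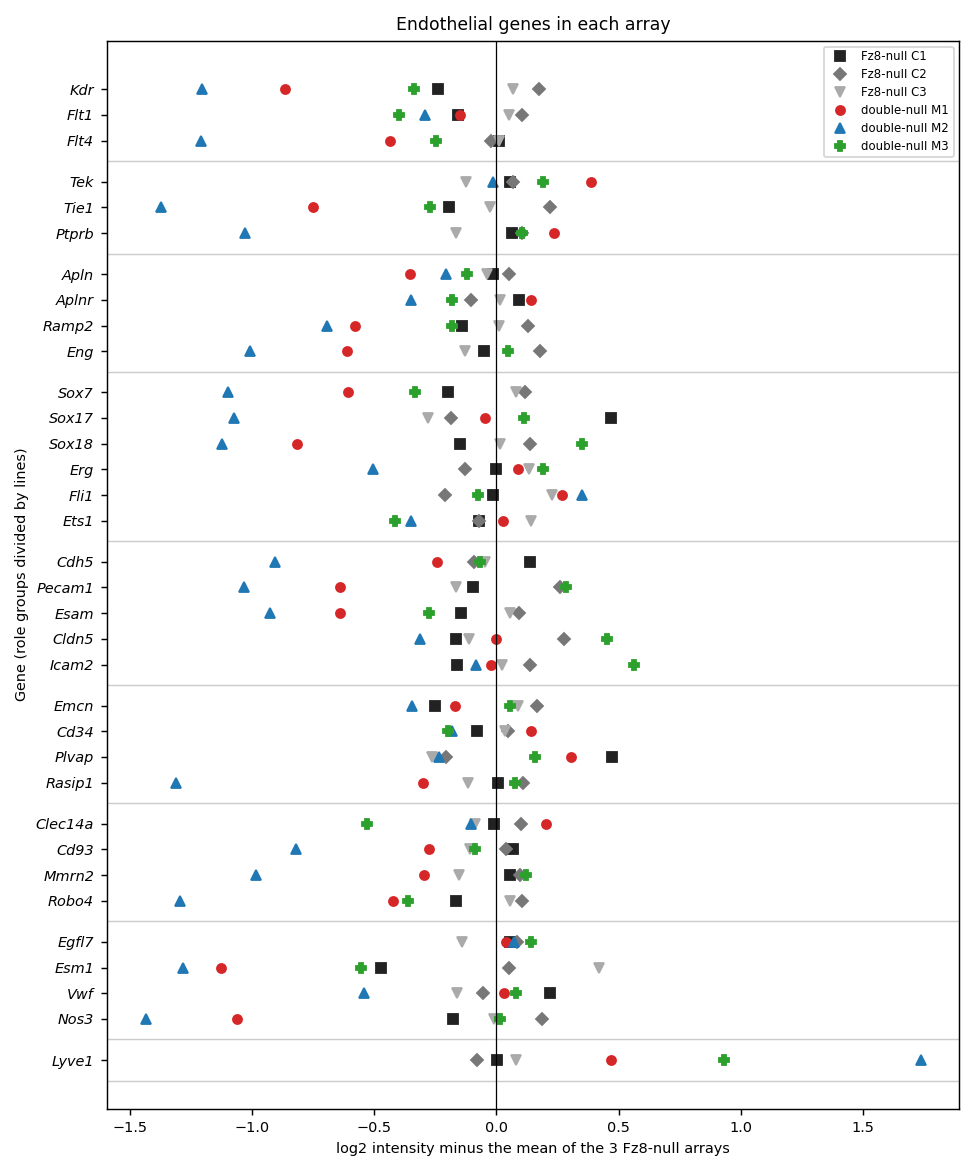
Each row is an endothelial gene and each point an array, drawn as log2 intensity minus the mean of the 3 Fz8-null arrays; lines divide the role groups. M2 (triangles) is the lowest of all 6 arrays for 23 of the 34 genes, and the points of M3 (crosses) lie close to or among those of the Fz8-null arrays for many of them.

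The shift was uneven across the double-null arrays. Against the Fz8-null mean, the median of the 34 genes was -0.21 for M1, -0.76 for M2 and -0.027 for M3. Bright genes had medians of -0.17, -0.25 and -0.018 in the same arrays. The endothelial genes thus departed most from bright genes in M2.

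Counts of endothelial genes below the range of the Fz8-null arrays had the same order, but set against bright genes they did not. The share below exceeded that of bright genes in M2 and in M3, and not in M1. In M1, 17 of the 34 genes lay below all 3 Fz8-null arrays (50.0%, against 42.0% of all and 52.4% of bright genes). Above all 3 lay 7 (20.6%, against 27.3% of all and 17.9% of bright genes). In M2 28 lay below (82.4%, against 46.9% of all and 59.9% of bright genes) and 2 above (5.88%, against 28.0% and 16.4%). In M3 14 lay below (41.2%, against 26.0% and 29.9%) and 10 above (29.4%, against 27.0% and 23.2%). The lowest value of the 6 arrays fell in M2 for 23 endothelial genes, and for 33.1% of all genes. Among the Fz8-null arrays C2 was the highest for 22 of the 34 genes. The SD was larger in the double-null group for 29 of the 34 genes and for 69.8% of all genes, with a median SD of 0.38 in double-null and 0.14 in Fz8-null kidneys.

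Control probe sets of the array moved with this order in part. The control for the mouse B1 repeat, a short interspersed element found in many transcripts, read 11.02, 10.67 and 10.73 in C1, C2 and C3 and 11.83, 12.08 and 10.85 in M1, M2 and M3, highest in M1 and M2. The 3' minus 5' difference of the beta-actin controls, which grows as RNA is degraded or labelled over a shorter stretch, was 1.00, 0.74 and 0.75 in the Fz8-null arrays and 1.30, 1.08 and 0.57 in M1, M2 and M3. With the B1 signal as a covariate the median endothelial difference was 0.0026, the same to 3 decimals as that of all genes (0.0027), with 17 genes below 0 and 17 above. With the beta-actin difference as a covariate, a choice made after the data were seen, it was -0.28, against -0.044 for all genes. The B1 signal was itself above every Fz8-null array in M1 and M2, so this fit rests on M3 and on the spread within each genotype.

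**Figure D2:**
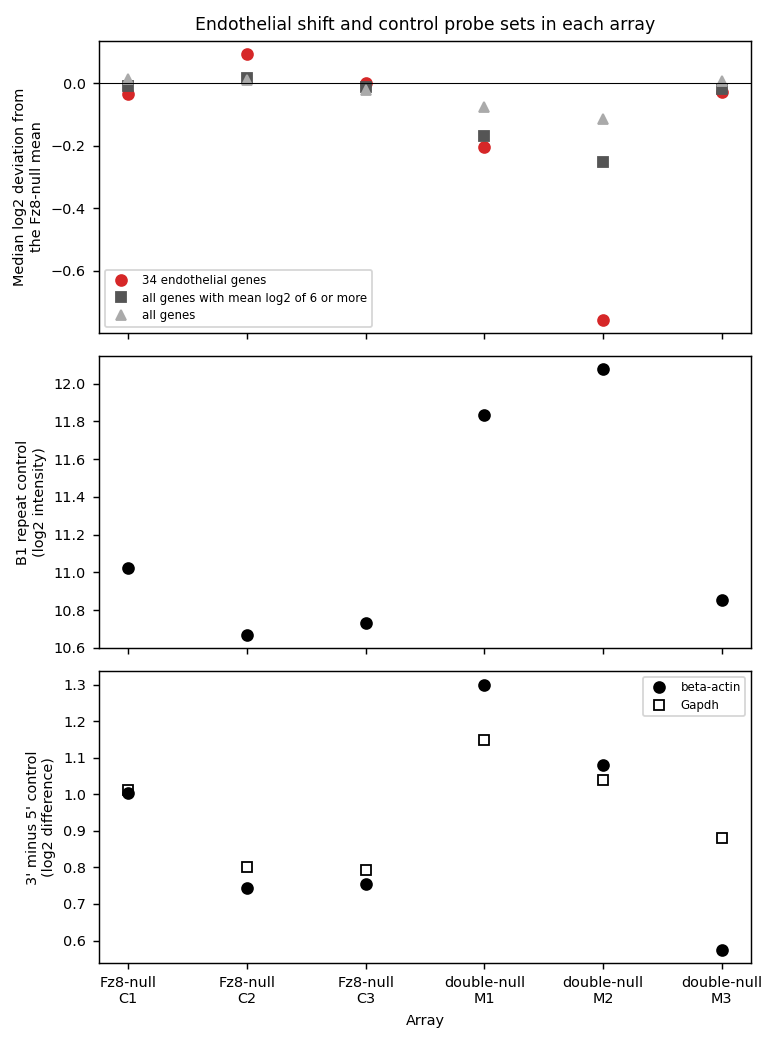
The 6 arrays on the horizontal axis, with the median log2 deviation from the Fz8-null mean (top; 34 endothelial genes, bright genes, all genes), the B1 repeat control (middle) and the 3' minus 5' difference of the beta-actin and Gapdh controls (bottom). The endothelial median is lowest in M2 at -0.76, where the B1 control reads 12.08, and is -0.027 in M3, where it reads 10.85.

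The sequence just before the transcription start is shown for Esm1, Kdr and Tie1, which had the smallest unadjusted p among the genes with a RefSeq promoter entry (GRCm38.p6), as the region searched for the core motifs of ETS and SOX factors, families with members in the list (Erg, Fli1 and Ets1; Sox7, Sox17 and Sox18). The 250 bases upstream of each start were searched on both strands for the ETS core AGGAAG and the SOX core ACAAT, which do not overlap in these windows, and matches are in capitals. Each is written 5′ to 3′ along the gene's strand.
Esm1 (chr13:113209409-113209658, plus strand): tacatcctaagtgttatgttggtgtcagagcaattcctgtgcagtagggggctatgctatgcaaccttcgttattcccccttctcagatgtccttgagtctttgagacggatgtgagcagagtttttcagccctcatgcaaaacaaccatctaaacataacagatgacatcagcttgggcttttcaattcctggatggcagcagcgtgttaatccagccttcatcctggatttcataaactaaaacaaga
Kdr (chr5:75978456-75978705, minus strand): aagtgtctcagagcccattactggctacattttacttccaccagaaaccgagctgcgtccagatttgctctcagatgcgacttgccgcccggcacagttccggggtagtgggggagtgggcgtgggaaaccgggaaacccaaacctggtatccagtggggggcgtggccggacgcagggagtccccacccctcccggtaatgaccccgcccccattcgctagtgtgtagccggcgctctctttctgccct
Tie1 (chr4:118489850-118490099, minus strand): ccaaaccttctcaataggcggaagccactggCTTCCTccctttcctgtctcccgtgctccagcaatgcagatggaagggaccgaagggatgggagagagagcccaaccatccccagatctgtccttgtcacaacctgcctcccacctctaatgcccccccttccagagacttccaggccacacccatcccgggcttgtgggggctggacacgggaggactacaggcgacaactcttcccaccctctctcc

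Tie1 held 1 ETS core, on the opposite strand and beginning at position -219 from its start, and the windows of Esm1 and Kdr held neither core. An entry was found for 16 of the 34 genes, with 20 start sites. The ETS core occurred in 11 of these 20 windows (55.0%) and in 29.5% of all 32851 promoter windows of the same length. Those 11 windows belonged to 10 genes, among them Egfl7, which held 3 matches, and Flt1, Eng and Emcn, which held 2 each. The SOX core occurred in 6 of the 20 (30.0%) and in 27.7% of all windows, with 2 matches each for Robo4 and Tek. In the genotype comparison Egfl7 stood at 0.085, Robo4 at -0.69 and Tek at 0.19.

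All 3 VEGF receptor genes lay lower. Kdr encodes VEGFR2, the main signalling receptor for VEGF-A, and read 8.81, 9.23 and 9.12 in C1, C2 and C3 and 8.19, 7.85 and 8.72 in M1, M2 and M3. The groups did not overlap, although M3 lay just below C1. The mean level of Kdr in double-null kidneys was 57.3% of that in Fz8-null kidneys, a log2 difference of -0.80 (SE 0.24, limma adjusted p = 0.314). Flt4 encodes VEGFR3, the receptor for VEGF-C, which is made in lymphatic endothelium and in sprouting blood vessels. It was very even in the Fz8-null arrays at 8.87, 8.84 and 8.87, and read 8.42, 7.65 and 8.61 in the double-null arrays. Its difference was -0.63 (SE 0.25, limma adjusted p = 0.320). Flt1, which encodes VEGFR1 and a soluble trap for VEGF-A, stood at -0.28 on its brightest probe set, and its groups overlapped.

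The Tie receptors parted. Tie1, the partner receptor that modulates angiopoietin signalling, read 7.91, 8.32 and 8.08 in Fz8-null and 7.35, 6.73 and 7.83 in double-null arrays. The groups were apart, with M2 the lowest and M3 next to C1, and the difference was -0.80 (SE 0.28, limma adjusted p = 0.314). Tek encodes Tie2, the angiopoietin receptor itself. It stood at 0.19 (95% interval -0.17 to 0.54), with 9.65, 9.66 and 9.47 against 9.98, 9.58 and 9.78. Ptprb, the vascular phosphatase VE-PTP that acts on Tie2 and on VE-cadherin, stood at -0.23, and only M2 lay below the Fz8-null range.
Genes of the apelin, adrenomedullin and BMP receptors lay lower in all 4 cases. Ramp2, the accessory protein that turns the calcitonin receptor-like receptor into an adrenomedullin receptor, read 10.57, 10.85 and 10.73 in Fz8-null and 10.14, 10.03 and 10.54 in double-null arrays. The groups were apart by a narrow margin between M3 and C1, with a difference of -0.48 (SE 0.17, limma adjusted p = 0.314). A pair of further probe sets shared by Ramp2 and its neighbour Vps25 stood at -0.044 and -0.033. Apln, the apelin ligand made by sprouting tip cells, was dim (mean 5.57) and stood at -0.23 with the groups apart. Its receptor gene Aplnr was the brightest of the 34 (mean 11.28) and stood at -0.13. Eng, the endoglin coreceptor for BMP9 and BMP10, stood at -0.53, and M3 lay within the Fz8-null range.

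Among the 6 transcription factor genes, read from the brightest probe set, the SOX genes lay lower and the ETS genes lay on both sides of 0. Sox7 read 8.17, 8.48 and 8.44 in Fz8-null and 7.76, 7.27 and 8.03 in double-null arrays, with the groups apart and a difference of -0.68 (SE 0.22, limma adjusted p = 0.314). Sox18, which acts in lymphatic specification, stood at -0.53, but it lay above every Fz8-null array in M3 (7.62, against 7.40 in C2) and below all of them in M1 (6.45) and M2 (6.14). Sox17, an arterial regulator, stood at -0.34 with a wide interval (-1.17 to 0.50). Erg stood at -0.075, Ets1 at -0.24 and Fli1 at 0.18, and each of these ETS factor genes had overlapping groups. Their further probe sets all stood below 0: Ets1 at -0.59, -0.56 and -0.092, Erg at -0.23 (mean 4.03) and Fli1 at -0.12.

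Junction and adhesion genes were divided as well. Esam, an adhesion molecule of endothelial tight junctions, read 7.78, 8.01 and 7.98 in Fz8-null and 7.28, 7.00 and 7.65 in double-null arrays, with the groups apart and a difference of -0.61 (SE 0.19, limma adjusted p = 0.314). Cdh5, VE-cadherin of the adherens junction, stood at -0.41, and Pecam1 (CD31) at -0.46. For both, M1 and M2 lay below the Fz8-null arrays; M3 lay within the Fz8-null range of Cdh5 and, at 7.85, just above that of Pecam1. Cldn5, the tight junction claudin of endothelium, stood at 0.045 (95% interval -0.50 to 0.59). Icam2, an adhesion ligand for leukocytes, stood at 0.15, and M3 was the highest array for both genes.

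In the 4 genes of the luminal surface and the vessel lumen the groups overlapped. Emcn, a sialomucin of veins and capillaries, stood at -0.15, Cd34, a sialomucin shared with blood progenitors, at -0.079, and Plvap, the diaphragm protein of fenestrated endothelium, at 0.076. Rasip1, which acts with Rap1 in opening the lumen, stood at -0.51, of which M2 (5.87, against 7.06 in C3, the lowest Fz8-null array) made the largest part. Cd93 and its ligand Mmrn2, a matrix protein of the vessel wall that also binds Clec14a, stood at -0.40 and -0.39, and Clec14a at -0.14. Robo4, a receptor that stabilises the vessel wall, read 7.97, 8.24 and 8.19 in Fz8-null and 7.71, 6.84 and 7.77 in double-null arrays. All 3 double-null values of Robo4 were lower, with a difference of -0.69 (SE 0.26, limma adjusted p = 0.317).

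The secreted factor Esm1 had the largest negative difference of the list. Esm1 is a proteoglycan made by tip cells under VEGF, and it read 6.29, 6.81 and 7.18 in C1, C2 and C3 and 5.63, 5.47 and 6.20 in M1, M2 and M3. The groups were apart, although C1 and M3 differed by less than the spread among the Fz8-null arrays. Its mean level in double-null kidneys was 50.4% of that in Fz8-null kidneys, a difference of -0.99 (SE 0.28, limma adjusted p = 0.314). Nos3, the endothelial nitric oxide synthase, read 6.32, 6.68 and 6.49 in Fz8-null and 5.44, 5.06 and 6.51 in double-null arrays. M1 and M2 were far below every Fz8-null array and M3 lay among them, so the groups overlapped (difference -0.83, SE 0.36, limma adjusted p = 0.328). Egfl7, a matrix factor of vessels, had the narrowest range over the 6 arrays, with 8.56, 8.59 and 8.37 against 8.54, 8.58 and 8.65. Vwf, the clotting factor stored in endothelium and platelets, stood at -0.14.

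**Figure D3:**
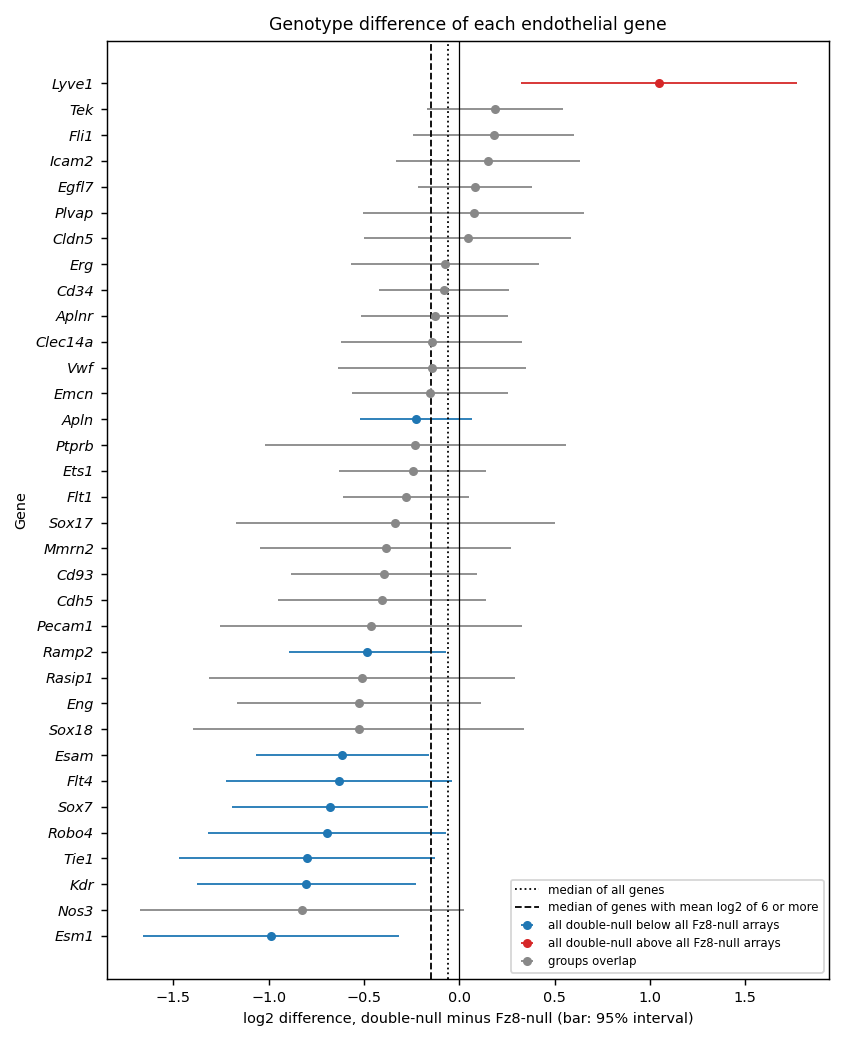
Log2 difference (double-null minus Fz8-null) of each endothelial gene with its 95% interval from limma; colour gives whether the 3 arrays of each genotype were apart, and dashed and dotted lines mark the medians of bright and of all genes. Esm1, at -0.99, and Lyve1, at 1.05, are the ends of the list, and 25 of the 34 intervals include 0.

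Lyve1 went the other way. It encodes a hyaluronan receptor of lymphatic endothelium that is also made by some macrophages and by the sinusoidal endothelium of liver. Its values were 5.65, 5.56 and 5.72 in Fz8-null and 6.11, 7.38 and 6.58 in double-null arrays, with M2 the highest. The difference was 1.05 (SE 0.31, limma adjusted p = 0.314), a level 2.06 times that of Fz8-null kidneys, and a second Lyve1 probe set stood at 0.97, also with the groups apart. Of the other lymphatic markers, Prox1, the regulator of lymphatic identity that is also expressed outside vessels, stood at 0.017. Pdpn stood at 0.010 and the member Flt4 at -0.63. Pdpn was much brighter, with a mean of 10.91 against 6.17 for Lyve1. In whole kidneys these values are not of lymphatic endothelium alone. Macrophage genes lay higher in 12 of 14 cases, with a median of 0.31, with the complement gene C1qb at 1.27 and the lysozyme gene Lyz2 at 1.36. The summed macrophage signal was 10.56 to 10.77 (log2) in Fz8-null arrays and 10.78, 11.90 and 11.60 in M1, M2 and M3, an order that Lyve1 shared. The median macrophage gene, against the Fz8-null mean, was at -0.21, 0.65 and 0.70 in M1, M2 and M3, an order that Lyve1 did not share. Liver genes lay higher in all 9 cases, with a summed signal of 8.90 to 9.65 in Fz8-null arrays and 10.17, 13.22 and 13.38 in M1, M2 and M3. The part of either in the Lyve1 values was not tested. Lyve1 and Rasip1 are the 2 genes of the list on chromosome 7, which also carries Fzd4.

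Probe sets of a gene could be set side by side for 16 genes, with 62 probe sets over the whole list. Of these 62, 48 stood below 0 and 14 had all double-null arrays below all Fz8-null arrays (11.3% of all probe sets did). All double-null arrays were above for 3, both probe sets of Lyve1 and the dim one of Sox7. Shares over all probe sets are not given for the 48 and the 3. None of the 62 passed adjustment over all 45037 probe sets (limma, smallest adjusted p 0.322, where 0.0111% of all probe sets passed). In 9 of 11 genes with several probe sets of mean 6 or more, those probe sets had one sign. The gap between them was as large as 0.82 for Flt1, whose probe sets stood at -0.87, -0.28 and -0.051. A second Clec14a probe set stood at -0.71 with the groups apart, where the brighter one stood at -0.14. Both Flt4 probe sets were alike at -0.63 and -0.54. Fli1 was split, at 0.18 and -0.12, and a Sox7 probe set near background stood at 0.37 against -0.68 for the bright one.

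**Figure D4:**
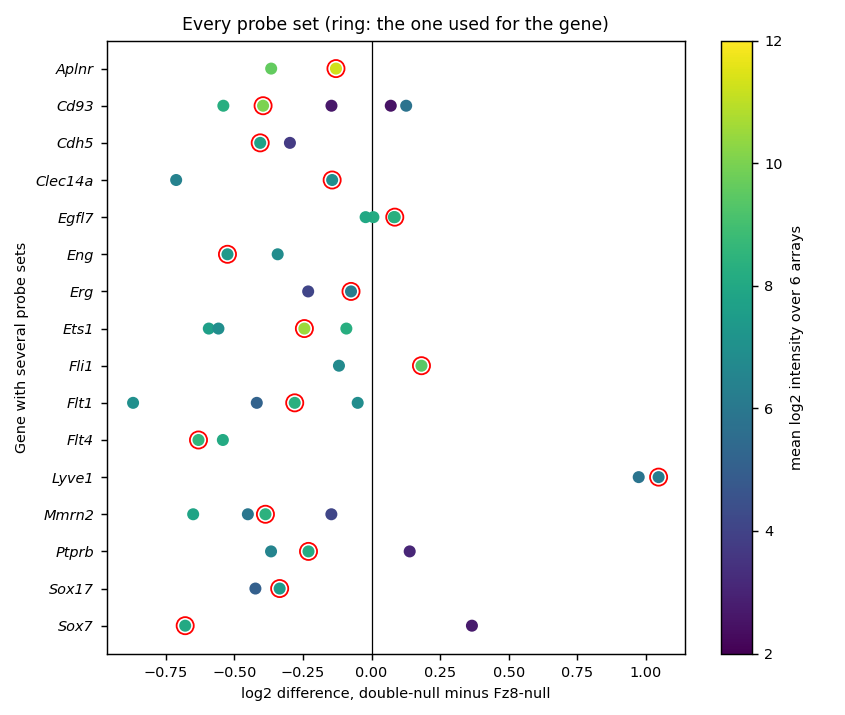
Each point is a probe set of one of the 16 endothelial genes that have several, placed at its log2 difference (double-null minus Fz8-null) and coloured by its mean log2 intensity; a ring marks the probe set used for the gene. The Flt1 points spread from -0.87 to -0.051, and both Lyve1 points stand near 1.

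Genes through which Norrin and Fz4 act in retinal and brain vessels were considered next, as a list of 18. Apart from Fzd4 none passed the threshold. The 5 of them that are also endothelial members were Cldn5 at 0.045, Plvap at 0.076, Sox7 at -0.68, Sox17 at -0.34 and Sox18 at -0.53. Of the others, Axin2, a feedback target of beta-catenin in many cell types, read 9.63, 9.55 and 9.62 in Fz8-null and 8.71, 8.38 and 9.18 in double-null arrays, a difference of -0.84 (SE 0.21, limma adjusted p = 0.314). Mfsd2a, a lipid transporter gene of brain endothelium, read 7.34, 7.29 and 7.07 against 6.54, 6.66 and 6.87, a difference of -0.55 (SE 0.15, limma adjusted p = 0.314). In both genes all 3 double-null arrays were below all 3 Fz8-null arrays. Tspan12 stood at -0.34, Lrp5 at -0.28, the Norrin gene Ndp at 0.29, Lef1 at -0.066 and Apcdd1 at 0.29. Slc38a5 (mean 4.36), Slco1c1 and Abcb1a were dim and stood at 0.57, 0.98 and 0.65.

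Other genes of vessel growth gave no call. Of 15 ligands and coreceptors 9 stood below 0 and 6 above (median -0.12). Pgf, placental growth factor and a ligand of Flt1, stood at -0.77 with M3 (7.86) within the Fz8-null range, and Angpt1, the activating ligand of Tie2, at 0.46 with all 3 double-null arrays above all Fz8-null arrays. Vegfa, the ligand of Kdr, read 8.43, 8.54 and 8.63 against 8.31, 8.07 and 8.28, a difference of -0.31 (SE 0.13, limma adjusted p = 0.328). Of 14 arterial, venous and Notch genes 10 stood below 0 (median -0.23). Cxcr4, a chemokine receptor gene of arteries and tip cells that is also expressed in other kidney cells, was even within each genotype, with 11.17, 11.12 and 11.21 against 10.85, 10.84 and 10.83 (difference -0.33, SE 0.11, limma adjusted p = 0.314). The connexin gene Gja5 stood at -0.37 and was dim (3.24 to 3.77 over the 6 arrays). Of 11 other regulators of endothelial development 7 stood below 0 (median -0.15), with Foxc2 at -0.29, Lmo2 at 0.33 and Tal1, which is shared with blood cells, at 1.00.

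Cells that lie beside or within vessels were read from their own lists. Of 10 mural cell genes 7 stood below 0 (median -0.16). Notch3 stood at -0.68 and Des at -0.63, and the summed mural signal was 12.15 to 12.33 in Fz8-null and 11.99, 11.76 and 12.25 in M1, M2 and M3. As in the endothelial list, M2 was the lowest array, and it was also the lowest for the embryonic kidney list and for the median of bright genes (-0.25). Erythroid genes lay higher in 11 of 12 cases, with a median of 1.43, Hemgn at 3.06 and Rhag at 1.09. Their summed signal was 13.62 to 13.80 in Fz8-null arrays and 13.31, 14.69 and 14.69 in M1, M2 and M3, so it was as high in M3 as in M2 where the endothelial median was not. Of 4 megakaryocyte and platelet genes 3 stood above 0 (median 0.16), with Gp1bb at 0.49 and Pf4 at 0.22. The lists of erythroid and macrophage genes held 2 and 1 genes with a mean under 4. In the liver list Fga stood at 2.54 and Afp at 3.22. In the embryonic kidney list Gdnf stood at -0.73 and Ret at -1.11, all 10 genes stood below 0 and the median was -0.24. For 5 of these 10 kidney genes all double-null arrays were below all Fz8-null arrays, against 26.5% of endothelial genes and 16.3% of bright genes. The part of these other cells in the endothelial values was not tested.

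Calls on endothelial genes depended on how the arrays were weighed. Without M3, 10 of the 34 genes fell (Eng, Esam, Esm1, Kdr, Nos3, Pecam1, Ramp2, Sox18, Sox7 and Tie1) and 0 rose, with 18.1% of all genes passing and 10.7% falling. Weights from limma were uneven in both genotypes: C1 0.49, C2 2.90 and C3 1.78, and M1 3.93, M2 0.48 and M3 0.21. With these array weights 15 of the 34 passed, 13 lower and 2 higher (Lyve1 and Tek). Under those weights 41.6% of all genes passed, and 26.1% were lower. In the other alternatives 0 of the 34 passed. The median difference was -0.47 without M3, -0.16 without M2 and -0.38 without M1, and -0.027 with M3 as the lone double-null array. The number of genes below 0 changed with scaling: it was 27 of 34 as deposited, 25 after quantile normalization and 21 with equal array medians. Equal medians, set over the values used per gene, moved the median of all genes from -0.061 to 0.12, and relative to all genes the endothelial median was -0.25 in both. Bright genes had medians of -0.15 as deposited, 0.031 with equal medians and -0.091 without M2. The endothelial genes had -0.31, -0.13 and -0.16 in these settings.

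**Figure D5:**
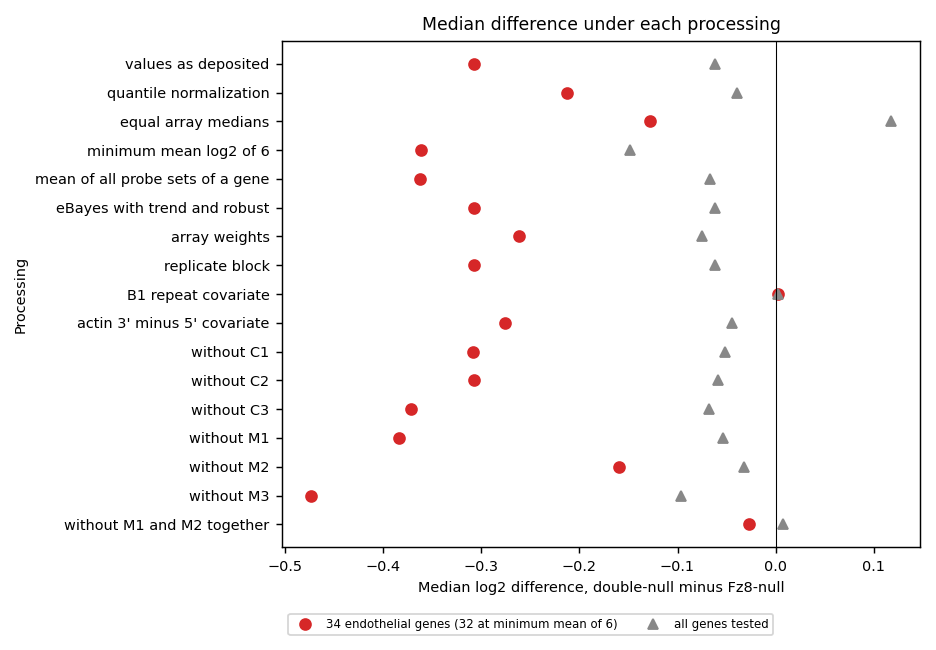
Median log2 difference (double-null minus Fz8-null) of the endothelial genes (circles) and of all genes tested (triangles) under each processing. The circle lies left of the triangle in every row, except that both coincide near 0 with the B1 covariate. The difference between circle and triangle is -0.0345 with M3 as the only double-null array.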

How the data were processed

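Each array gave 1 value per probe set. The values are log2 intensities that the authors normalized between arrays with RMA, per the submitters' processing notes (version not given in the sources used here), and the deposited table was used as it stood. Of 45101 probe sets, 64 controls were set aside. The platform annotation gave 1 gene for 34945 of the rest, several for 932 and none for 9160, and each of 18193 genes was read from its brightest probe set over the 6 arrays. Depth has no meaning for arrays, and their number limits the precision. Both genotypes were compared with the moderated linear model of limma 3.58.1 (R 4.3.3; two-sided, no mean-variance trend), with Benjamini-Hochberg adjustment over all genes and a threshold of 0.05, and the script was checked on simulated data. SE is the moderated standard error of limma. A summed signal is the log2 of the summed linear intensities of a list.

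The list members, the other lists (vessel ligands, arterial and venous genes, regulators, Norrin and Fz4 genes, mural, lymphatic, megakaryocyte, erythroid, macrophage, liver and kidney genes) and the tests were chosen with earlier results of these data known. By rule, every array is given for the 10 members of smallest p, which include the largest difference in each direction, and the 2 genes of smallest p are named from each other list; further values were chosen after they were seen. Alternatives were quantile scaling, equal medians, a minimum mean of 6, averaging a gene's probe sets, robust moderation with a trend, weighting of arrays, a replicate block, a B1 covariate, and leaving out arrays.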

Additional observations from a re-analysis of the deposited data

Results flagged for a closer look

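Of the 64 control probe sets, which are outside the comparison, 18 read higher in every double-null array than in every Fz8-null array, and 2 of these differed by more than 1 on the log2 scale. The 3' control for 18S ribosomal RNA read 8.14, 7.32 and 7.40 in C1, C2 and C3 and 9.16, 9.64 and 9.25 in M1, M2 and M3, a difference of 1.73 on the log2 scale. The 5' control for the same RNA differed by 2.11, and the control for its middle part by -0.091. Unlike the endothelial median, which was near 0 in M3, the 3' and 5' controls were higher in M3 as well. All 10 probe sets of the BioB and BioC hybridization controls were among the 18, with differences from 0.68 to 0.86; 1 of the BioB probe sets, for the middle part, read 10.50, 9.79 and 9.74 in C1, C2 and C3 and 10.62, 10.87 and 10.81 in M1, M2 and M3. The part of these controls in the endothelial values was not tested.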

How the results depend on the processing

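The number of genes passing among all genes was 5, and it was 1 when a gene's probe sets were averaged, 3 with the replicate block, 3 with the B1 covariate, 9 with the beta-actin covariate (added after the data were seen), 11 at an adjusted p under 0.1, 7576 with array weights and 55 with M1 and M2 left out together. Leaving out 1 array gave 2 to 3292, the highest without M3 and 39 without M1. Of the 34 endothelial genes 15 passed with array weights, and leaving out 1 array gave 0 to 10, the 10 without M3. Their median of -0.31 moved to 0.0026 with the B1 covariate and to -0.027 without M1 and M2, and ran from -0.47 to -0.16 when 1 array was left out. The count lying lower without overlap was 9 with all arrays, where 12.2% of all genes did. It ran from 9 to 17 when 1 array was left out, which can only raise such a count for any set of genes. Among these settings the share over all genes is given only without M3, so the other counts cannot be read against it. The 17 came without M3, where 34.1% of all genes lay lower without overlap. The count was 14 (41.2%) with M3 as the only double-null array, where 26.0% of all genes and 29.9% of bright genes lay lower. In that setting 10 endothelial genes (29.4%) lay above every Fz8-null array, near the 27.0% of all genes and 23.2% of bright genes that did. Nos3 turned to 0.062 with the B1 covariate and to 0.015 without M1 and M2. Of 160 further values for the 10 genes given in full, 141 kept their direction and stayed short of the threshold and 17 kept their direction and passed it (10 with array weights and 7 without M3). Whether replicate numbers pair the arrays could not be settled from 3 arrays per genotype. For arrays sharing a number, residual correlations were 0.17, -0.14 and 0.090, and for the other pairings they ran from -0.23 to 0.25. The replicate block put 0 endothelial genes past the threshold. The causes of these changes were not tested. With 3 arrays per genotype, the intervals given set the precision.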
